A study of Mus musculus with 2 samples.

Results

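Oxidative phosphorylation genes were chosen from the deposited table by symbol: the Nduf genes of complex I, the Sdh genes of complex II, the Uqcr genes of complex III, the Cox4 to Cox8 genes of complex IV, the Atp5 genes of complex V, and the protein-coding genes of the mitochondrial genome. Of 38016 loci in the table, 100 matched and 98 had usable values. The other 2, both mitochondrially encoded, carried the status HIDATA, which the software gives to loci with too many fragments to estimate, and are described apart. Of the 100 loci, 90 were nuclear and 10 mitochondrial. The nuclear loci were 82 for subunits, 4 for Ndufaf assembly factors and 4 others that the symbols take in (Cox7a2l, Atp5s, Atp5sl and the pseudogene Atp5l-ps1).

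The libraries came from regenerating mouse liver 48 hr after partial hepatectomy (PH), the surgical removal of part of the liver. One was from wild-type (WT) and one from PPARβ-null (KO) male C57BL/6 mice of 4 month, with 1 library per genotype. PPARβ is a nuclear receptor that acts on genes of energy metabolism. The study asked whether it has a role in liver regeneration. The null allele was carried by the whole animal, not by hepatocytes alone. How many mice gave each library is not given in the sources used here, so no value below has a replicate error, and no p-value is given.

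Levels are in FPKM, fragments per kilobase of transcript scaled to the mapped fragments of the library, so genes can be compared per length. Differences are log2 KO/WT after adding 0.1 FPKM to both values, and ratios are WT/KO of the FPKM. Genes with a mean of at least 1 FPKM were taken as expressed. The depth was 53.2 fragments in WT and 54.8 in KO for 1 FPKM on 1 kb of transcript. Over the 11723 expressed genes the median log2 KO/WT was -0.24, so the general level itself lay below 0, and each median below is set beside it. The targeted gene, Ppard, had 2.67 FPKM in WT and 2.42 FPKM in KO over its whole locus, a value that does not resolve exons and so does not check the genotype. All 8 hepatocyte markers were expressed in both libraries, with summed levels of 20430 FPKM in WT and 24060 FPKM in KO. Single markers went both ways, with 3 lower and 5 higher in KO.

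Oxidative phosphorylation takes place in the inner mitochondrial membrane. Complexes I and II pass electrons from NADH and succinate to coenzyme Q, complex III passes them on to cytochrome c, and complex IV hands them to oxygen. Complexes I, III and IV pump protons, and complex V, the ATP synthase, uses the gradient to make ATP. All but complex II are built from subunits of both genomes, and the hepatocyte is rich in mitochondria.

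Nearly every nuclear-encoded subunit had a lower level in KO than in WT. Of the 82 nuclear subunits, 75 were expressed and the other 7 were tissue-restricted isoforms or relatives described further on. In KO 74 of the 75 were lower, whereas 75.6% of all expressed genes were lower. The differences were mostly small and alike. In 55 of the 75 the WT/KO ratio lay between 1 and 1.5, in 19 it was above 1.5, and 1 subunit was higher in KO. Lower levels by more than 1.5-fold were seen in 25.3% of the subunits and in 19.1% of all expressed genes, but the order of these shares depended on the scaling and the fold. Relative to the median of all genes they were 5.33% of the subunits and 11.6% of all genes, with equal upper quartiles 6.67% and 12.6% (12.55), and past 2-fold 2.67% and 8.23%. No subunit was higher in KO by more than 1.5-fold, as against 3.99% of all expressed genes. The median log2 KO/WT was -0.43, a WT/KO ratio of 1.35, and 65 of the 75 subunits lay below the median of all genes.

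Most of these subunits are abundant, and among abundant genes large differences were rarer. Of the 71 subunits with a mean of at least 30 FPKM, 18 (25.4%) were lower in KO by more than 1.5-fold, and of all 2298 genes at that level 12.4% were. Relative to the median of all expressed genes the order turned here too, with 3 of the 71 (4.22%, 4.225) and 6.79% of the genes. Lower levels of any size were found in 70 of the 71, and in 68.7% of all genes at that level. The medians of log2 KO/WT were -0.42 for these subunits and -0.19 for these genes.

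The subunits also differed less among themselves than genes in general. Over the 73 subunits with a mean of at least 5 FPKM the SD of log2 KO/WT was 0.236, and over the 7501 genes at that level it was 0.694. These 73 subunits rested on at least 1086 estimated fragments in a library, and the 95% counting intervals of their ratios spanned a factor of at most 1.16. Over all 75 the interval of KO/WT lay below 1 in 72 and held 1 in 3. These exact intervals cover counting error only, not the spread between animals. Across the 75 subunits log2 KO/WT had a Spearman rho of -0.075 with transcript length and of -0.052 with mean FPKM, given as a description over genes that share the same libraries.

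**Figure D1:**
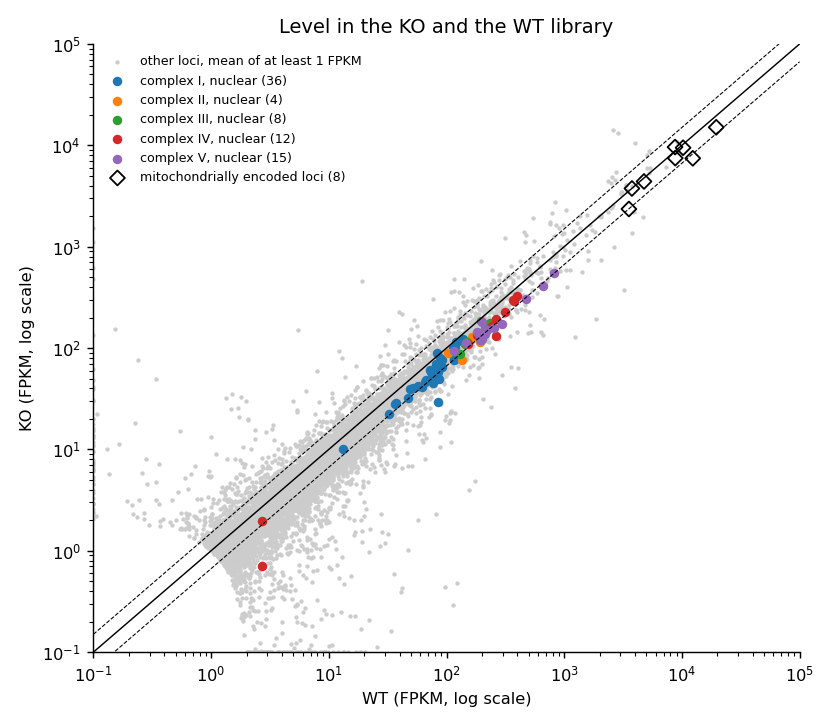
FPKM of each locus in the WT (x) and KO (y) library on log scales, with other loci in grey, nuclear subunits coloured by complex and mitochondrially encoded loci as open diamonds. The solid line marks equal levels and the dashed lines 1.5-fold; 74 of the 75 nuclear subunits lie below the solid line and 19 below the lower dashed line.

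Complex V, the ATP synthase, had the lowest median of the 5 complexes. All 15 expressed nuclear subunits were lower in KO, 7 of them by more than 1.5-fold, with a median log2 KO/WT of -0.57. In complex II all 4 subunits were lower, 2 by more than 1.5-fold, with a median of -0.55. The medians were -0.46 over the 12 expressed nuclear subunits of complex IV, -0.42 over the 8 of complex III and -0.38 over the 36 of complex I. More than 1.5-fold lower in KO were 2 of 12, 2 of 8 and 6 of 36, respectively, so complexes I and IV, at 16.7% each, lay below the 19.1% of all genes. The complexes overlapped widely, and differences among their medians were not tested.

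**Figure D2:**
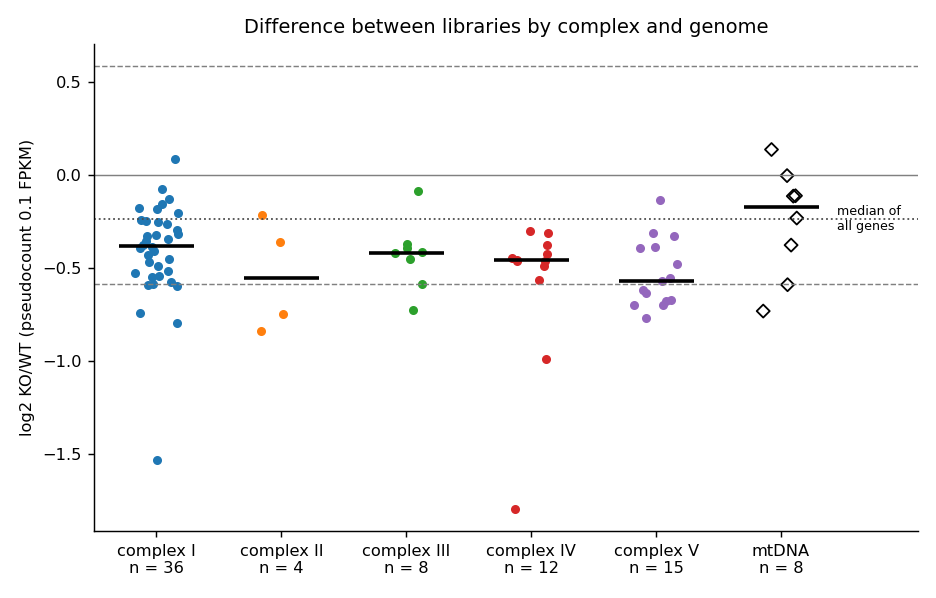
log2 KO/WT of each expressed nuclear subunit by complex, and of the 8 mitochondrially encoded loci with values in both libraries, 1 point per gene or locus. Short bars are medians, the dotted line is the median of all expressed genes (-0.24) and the dashed lines mark 1.5-fold; Ndufs5 in complex I and Cox7a1 in complex IV are the lowest points.

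In complex V, the F1 head that makes ATP was represented by 5 subunits, with a median log2 KO/WT of -0.57. Atp5b, the catalytic beta subunit and the most abundant of all nuclear members, had 820 FPKM in WT and 552 FPKM in KO. Atp5a1, the alpha subunit, had 477 and 307 FPKM in WT and KO. The gamma subunit Atp5c1, the central stalk, had 201 and 124 FPKM. The alpha and gamma subunits were past 1.5-fold, with WT/KO ratios of 1.55 and 1.62, and the beta subunit lay just under it at 1.49. Atp5e, the epsilon subunit, differed least in the complex, with 200 FPKM (199.8) in WT and 182 FPKM in KO.

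The membrane ring and the stator that holds the head in place had 10 expressed subunits, all lower in KO, 5 by more than 1.5-fold. The ring of c subunits is encoded by 3 genes with the same mature product. Atp5g3 was the most abundant of them, at 662 FPKM in WT and 414 FPKM in KO, a ratio of 1.60. Atp5g1 had 252 FPKM in WT and 158 FPKM in KO, a ratio of 1.59, and Atp5g2 had 116 and 93.3 FPKM, a ratio of 1.24. All 3 ring genes were thus lower in KO, the least abundant by the least. The stalk subunit Atp5o had 194 FPKM in WT and 119 FPKM in KO, on a row that it shares with Donson. Atp5h, another stator subunit, had 211 and 137 FPKM in WT and KO. Atp5k, the small membrane subunit e, had 297 FPKM in WT and 175 FPKM in KO, the largest ratio of the complex at 1.70.

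Complex II, which is also an enzyme of the TCA cycle and is wholly nuclear-encoded, showed a split among its 4 genes. Sdhb, the iron-sulfur subunit, had 135 FPKM in WT and 75.6 FPKM in KO, a ratio of 1.79 with a counting interval of 1.73 to 1.85. Sdhd, a membrane anchor, had 193 FPKM in WT and 115 FPKM in KO, a ratio of 1.68 with an interval of 1.63 to 1.73. The flavoprotein Sdha, which oxidizes succinate, had 166 and 129 FPKM, a ratio of 1.29 (1.26 to 1.31), and the other anchor, Sdhc, had 104 and 89.2 FPKM, a ratio of 1.16 (1.14 to 1.19). The intervals of Sdhb and Sdhd did not overlap those of Sdha and Sdhc. Such intervals cover counting error only and are narrow at this depth. Over the 73 subunits of at least 5 FPKM their median span was a factor of 1.07. Whether other livers would show the same split could not be tested.

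In complex III, Uqcr10 and the core protein Uqcrc1 were past 1.5-fold. Uqcr10, a small accessory subunit, had 197 FPKM in WT and 119 FPKM in KO, a ratio of 1.65. Uqcrc1 had 130 FPKM (130.4) and 86.9 FPKM, a ratio of 1.501. The most abundant subunits were Uqcrh, the hinge protein, at 236 FPKM in WT and 176 FPKM in KO, and Uqcrq, at 197 and 186 FPKM. Uqcrq showed the smallest difference of the complex, with a ratio of 1.06.

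In complex IV the nuclear subunits surround a catalytic core that the mitochondrial genome encodes. Cox5a, which sits on the matrix side, was the only abundant one past 1.5-fold, with 262 FPKM in WT and 132 FPKM in KO, a ratio of 1.99. The other 9 subunits of the liver set were within a narrow band, from Cox5b at 246 and 166 FPKM (ratio 1.48) to Cox6a1 at 399 and 323 FPKM (ratio 1.23). Cox6a1 was the most abundant and Ndufa4, once counted with complex I, the second, at 376 FPKM in WT and 290 FPKM (289.9) in KO. Ratios near 1.3 and 1.4 were thus the rule in this complex, with Cox5a apart.

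Several complex IV subunits have isoforms that are used in muscle, lung or testis in place of the liver forms. These were near the limit of detection here. Cox7a1, the heart and muscle form, had 2.70 FPKM in WT and 0.707 FPKM in KO, beside 182 and 136 FPKM for its liver counterpart Cox7a2. Its ratio of 3.83 was the largest of all nuclear subunits, but it rested on about 52.3 and 14.1 fragments, and its counting interval ran from 2.09 to 7.48. Cox6b2, the testis form, had 2.73 FPKM in WT and 1.95 FPKM in KO, beside 369 and 297 FPKM for Cox6b1, and its interval for the ratio, 0.986 to 1.99, held 1. Cox4i2, the lung form, had 0.124 and 0.0871 FPKM, and its liver counterpart was not analysed here. The muscle forms Cox6a2 and Cox8b were listed at 0 in WT and at 0.0800 and 0.0476 FPKM in KO, respectively. Cox7b2 and Cox8c were listed at 0 in both libraries. The counterparts of these last 4 in liver were at 399, 313, 151 and 313 FPKM in WT (Cox6a1, Cox8a, Cox7b and again Cox8a). Ndufa4l2, a relative of Ndufa4, had 0.760 and 0.309 FPKM, and Atp5l2 had 0.574 and 0.503 FPKM beside 184 and 140 FPKM (140.1) for Atp5l.

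The muscle markers Ckm, Mb, Myh4, Myh6 and Myh7 were listed at 0 in both libraries, and the 8 muscle markers in the table summed to 0.503 FPKM in WT and 0.424 FPKM in KO. Of 5 markers of blood vessel wall cells 3 were expressed, and all 3 were lower in KO, as were 75.6% of all expressed genes. Of these 3, 1 was past 1.5-fold, as against 19.1% of all expressed genes. Cspg4, the only one of the 5 higher in KO, was far below 1 FPKM, at 0.00586 FPKM in WT and 0.00907 FPKM in KO. The sum of all 5 markers was 16.7 FPKM in WT and 8.67 FPKM in KO, and the one past 1.5-fold, Acta2, smooth muscle actin, had 5.57 and 1.26 FPKM. Their part in the Cox7a1 value was not tested. Fewer cells of a type and less RNA per cell cannot be told apart in whole liver.

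Complex I, the largest complex, had 36 expressed nuclear subunits, of which 35 were lower in KO. The 7 core subunits, which carry the flavin and iron-sulfur clusters, had a median log2 KO/WT of -0.41 with 1 past 1.5-fold, and the 29 accessory subunits had a median of -0.36 with 5 past 1.5-fold. Ndufs8, the core subunit past 1.5-fold, holds iron-sulfur clusters near the coenzyme Q site and had 61.6 FPKM in WT and 40.9 FPKM in KO. Among the accessory subunits Ndufc2 had 85.5 FPKM in WT and 49.1 FPKM in KO, a ratio of 1.74. Ndufa5 had 76.4 and 45.6 FPKM, a ratio of 1.68. Ndufb8, on a row shared with Sec31b, had 115 and 76.0 FPKM, and Ndufb10 had 117 and 77.6 FPKM. These last 2 and Ndufs8 lay at the threshold, with ratios from 1.504 to 1.515, and Ndufv2, which holds an iron-sulfur cluster of the NADH-oxidizing arm, lay just under it at 1.49.

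The most abundant subunits of complex I showed small differences. Ndufb9 had 212 FPKM in WT and 167 FPKM in KO, and Ndufa6 had 137 and 123 FPKM. Ndufa1, a small membrane subunit, was the only expressed nuclear subunit with a higher level in KO, at 83.7 FPKM in WT and 88.7 FPKM in KO. Its WT/KO ratio of 0.943 had a counting interval of 0.885 to 1.01, so its direction was not resolved at this depth.

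**Figure D3:**
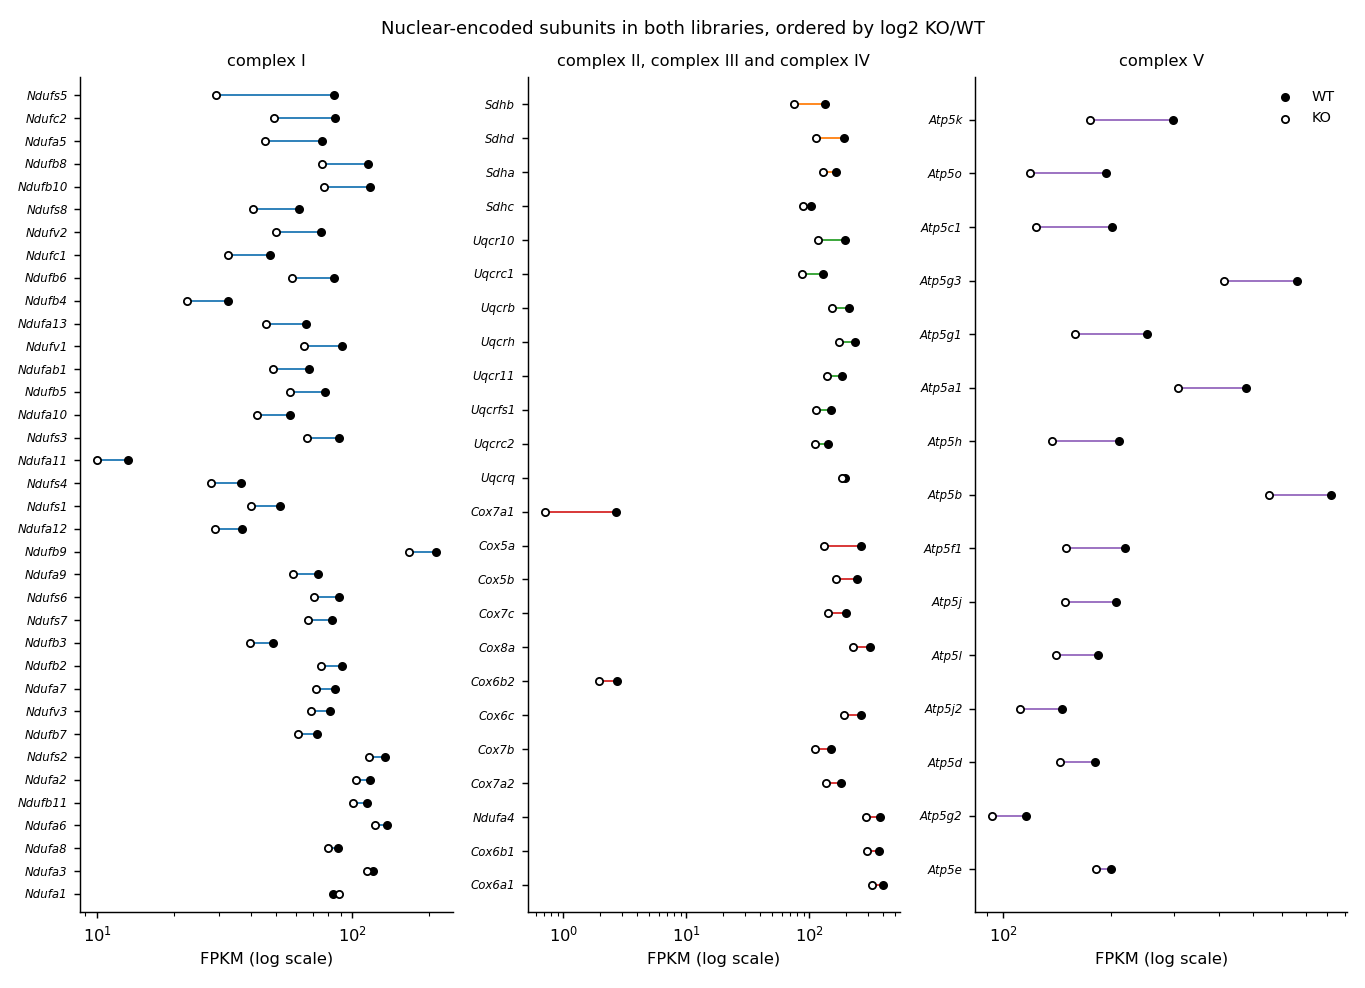
FPKM of every expressed nuclear subunit in WT (filled circles) and KO (open circles) on log scales, ordered within each complex by log2 KO/WT, with line colours marking the complex. In every row but that of Ndufa1 the KO circle lies to the left of the WT circle.

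Ndufs5, an accessory subunit at the foot of the complex I membrane arm, had the largest difference among the abundant subunits, with 84.4 FPKM in WT and 29.1 FPKM in KO, a ratio of 2.90. Its row (chr4:123389953-123395445, minus strand, NCBI37) has a near-identical copy elsewhere. The copy is BC002163, an intronless transcribed pseudogene on chromosome 16 (chr16:42955744-42956064, plus strand) that lies within the span of the Zbtb20 locus. In the reference genome it differs from the 321 coding bases of Ndufs5 at 2 positions, T81C and A105G, counted from the first base of the start codon with the Ndufs5 base first. Both fall on the last base of a codon. The stretch that holds both, coding bases 66 to 140 and chr16:42955809-42955883 in the copy, is shown with the differing bases in capitals, because only reads over these bases could tell the loci apart within the coding sequence.
Ndufs5: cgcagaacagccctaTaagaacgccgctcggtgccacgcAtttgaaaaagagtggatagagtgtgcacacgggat
BC002163: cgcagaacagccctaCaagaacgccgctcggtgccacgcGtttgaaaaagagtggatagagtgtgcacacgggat

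The copy differed in the opposite direction. BC002163 had 22.8 FPKM in WT and 50.1 FPKM in KO, so it made up 21.3% of the summed FPKM of both loci in WT and 63.2% in KO. The sum was 107 FPKM in WT and 79.3 FPKM in KO, a ratio of 1.35, close to the median ratio of all nuclear subunits. With fragments in place of FPKM, estimated from the annotated lengths of 680 and 321 bases, the ratio of the summed levels was 1.80. The value of Ndufs5 alone is therefore uncertain, and how the reads were shared between the loci was not tested.

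Near-identical copies, with at least 95% identity over at least 50% of the transcript, were found for 21 of the 82 nuclear subunits. Their median log2 KO/WT over the 20 expressed was -0.44, and that of the 55 expressed subunits without a copy was -0.43. For Atp5g2, the copies Gm10231 and Gm10175 are identical to it over their length. Both had exactly the same deposited values, 38.1 FPKM in WT and 29.0 FPKM in KO. Adding the fragments of annotated copies moved the WT/KO ratio of Atp5g2 from 1.24 to 1.26 and that of Atp5l, which has 10 copies, from 1.32 (1.315) to 1.34. Among the expressed subunits with annotated copies, such a sum moved the ratio of Ndufs5 most, from 2.90 to the 1.80 given above.

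The mitochondrial genome encodes 13 proteins of the chain, all of them core subunits. The table holds them in 10 loci, 8 of which had values in both libraries. Their levels were far above the nuclear ones, with a median of 8764 FPKM in WT, 67.2 times the median of the nuclear subunits. Of the 8 loci, 7 were lower in KO and 1 was higher, and of all expressed genes 75.6% were lower. Among the 7, mt-Nd5 was nearly equal in both libraries. The median log2 KO/WT of the 8 loci was -0.17, which is nearer to 0 than the -0.24 of all genes. Only 3 of the 8 lay below the median of all genes, and relative to that median the direction turned, to 0.06. The summed level was 71770 FPKM (71770.0) in WT and 59590 FPKM (59590.0) in KO. This was 13.2% and 10.8% of all FPKM without the HIDATA loci, and the nuclear subunits made up 2.24% and 1.59%.

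The complex I genes of the mitochondrial genome differed from one another. mt-Nd1, on a row shared with a transfer RNA gene, had 12370 FPKM (12370.3) in WT and 7449 FPKM in KO, a ratio of 1.66, and mt-Nd3 had 3544 and 2355 FPKM, a ratio of 1.505. These 2 of the 8 loci were lower by more than 1.5-fold, as were 19.1% of all expressed genes. Neither was past it under other scalings. Their log2 KO/WT was -0.49 and -0.35 relative to the median of all genes, and -0.53 and -0.39 with equal upper quartiles. mt-Nd2, also on a row with a transfer RNA gene, had 8783 FPKM in WT and 7481 FPKM in KO. mt-Nd4 and mt-Nd4l, on 1 row, had 10232 and 9469 FPKM. mt-Nd5 had 3762 and 3753 FPKM, and mt-Nd6, which lies on the opposite strand, had 4764 and 4403 FPKM. The WT/KO ratio of mt-Nd5, 1.002, had a counting interval of 0.9984 to 1.006, so its direction was not resolved. The rows of mt-Nd5 and mt-Nd6 span the same interval, and as the library kit is not stated to keep strand, their reads cannot be told apart. Of the other complexes, mt-Co2, which takes the electrons from cytochrome c, had the highest usable level, 19570 FPKM (19569.9) in WT and 15069 FPKM in KO, a ratio of 1.299. mt-Cytb, the catalytic core of complex III, was the only locus higher in KO, with 8746 FPKM (8745.5) in WT and 9615 FPKM in KO.

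**Figure D4:**
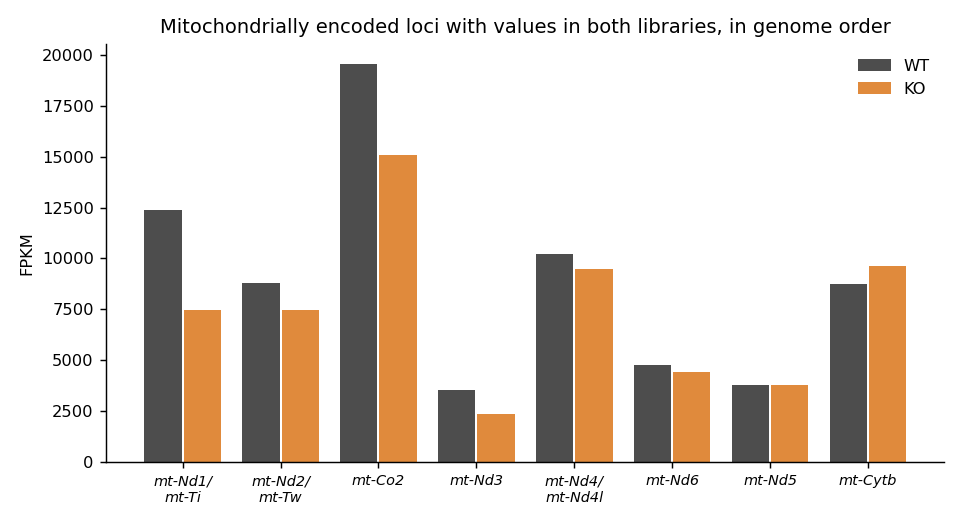
FPKM of the 8 mitochondrially encoded loci with values in both libraries, in the order of the mitochondrial genome, as 1 bar per library (dark, WT; orange, KO). The KO bar is lower for all loci but mt-Cytb, where it is higher, and it differs most for mt-Nd1. For mt-Nd5 the bars are nearly equal.

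Along the genome the differences had a partial order. Over the 7 loci of the heavy strand transcript with values in both libraries, log2 KO/WT had a Spearman rho of 0.857 and a Pearson r of 0.738 with the start position. The lowest value was at mt-Nd1, near the start, and the highest at mt-Cytb, at the far end. mt-Nd3, which lies between them, departed from the order with the next lowest value, -0.59. The HIDATA loci lie between mt-Nd2 and mt-Nd3 and gave no values, and the reads of mt-Nd5 cannot be told from those of mt-Nd6. This is a description of 7 loci of the same libraries. The ribosomal RNA genes upstream of mt-Nd1 did not follow the order. mt-Rnr1 had 282 FPKM in WT and 532 FPKM in KO, and mt-Rnr2 had 184 and 421 FPKM, both higher in KO. The libraries were made with a kit that selects polyadenylated RNA, so these low levels are of what passed that selection.

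Some neighbouring mitochondrial genes share bases and are on joint rows of the table. mt-Atp8 and mt-Atp6 overlap by 43 bases, and mt-Nd4l and mt-Nd4 by 7 bases. The end of the first gene of each pair is shown with the start codon of the second in capitals (chrM:7907-7969 and chrM:10111-10173, plus strand, NCBI37), because genes of these pairs share both bases and a row, so that no member has a value of its own.
mt-Atp8 into mt-Atp6: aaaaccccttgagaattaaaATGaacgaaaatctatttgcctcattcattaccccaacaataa
mt-Nd4l into mt-Nd4: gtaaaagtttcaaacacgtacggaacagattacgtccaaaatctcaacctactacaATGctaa

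The HIDATA rows held the remaining mitochondrial genes. mt-Co1, the catalytic subunit of complex IV, was listed at 0 in both libraries. The joint row of mt-Atp6, mt-Atp8 and mt-Co3 was listed at 0 in WT and at 28141 FPKM (28140.7) in KO. These zeros are failed estimates, since every respiring cell uses these genes, and no ratio was formed. Pseudogenes copied into the nuclear genome carry the same sequence. Gm10925 on chromosome 1, 100% identical to mt-Atp6 in the reference, had 7388 FPKM in WT and 6129 FPKM in KO. On chromosome 2, Gm13340, 97.6% identical to mt-Co1, had 140 FPKM (140.2) and 111 FPKM, and Gm13341, 97.5% identical to mt-Co2, had 403 and 320 FPKM (320.3). Gm10222, 100% identical to mt-Nd4l, had 2063 and 1968 FPKM. All 4 were lower in KO, but reads of the mitochondrial genes and of such copies cannot be told apart where the sequence is the same. The copy on chromosome 1 also covers mt-Co2, mt-Co3, mt-Nd3 and part of mt-Nd4 without a mismatch, so the values of these loci share this limit.

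Assembly factors help to build the complexes and do not stay in them. The 4 Ndufaf genes differed little, with a median log2 KO/WT of -0.23, close to that of all genes, and none past 1.5-fold. Ndufaf2 had 16.3 FPKM in WT and 12.3 FPKM in KO, while Ndufaf4 had 13.5 and 15.5 FPKM and was the only one higher in KO. Relative to the median of all genes their median was 0.00 (0.004). The other assembly factors gave a median of -0.24 over 24 genes. By more than 1.5-fold 3 (12.5%) were lower and 1 was higher in KO, as against 19.1% and 3.99% of all expressed genes. The 3 most abundant of them, Cox16, Cox17 and Tmem70, had 69.6, 38.3 and 28.3 FPKM in WT and 70.0, 32.4 and 22.0 FPKM in KO. Sco2, a copper carrier for complex IV, was the 1 higher by more than 1.5-fold. It had 10.6 FPKM in WT and 36.2 FPKM in KO and is named because of its value. Of the 4 others that the symbols take in, Cox7a2l, a factor for joining complexes III and IV, had 64.1 and 43.3 FPKM.

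Over lists of other mitochondrial genes the medians of log2 KO/WT ran from -0.64 to 0.01, beside -0.24 over all genes. The 5 subunits and carriers with other names were all lower in KO, 3 by more than 1.5-fold, with a median log2 KO/WT of -0.64. Cyc1, the cytochrome c1 of complex III, had 222 FPKM in WT and 129 FPKM in KO. 2010107E04Rik had 231 and 148 FPKM, and Usmg5, a small protein bound to the ATP synthase, had 148 and 102 FPKM. All 14 TCA cycle genes were lower, 2 by more than 1.5-fold, with a median of -0.47, among them Mdh2 at 228 FPKM in WT and 157 FPKM in KO, Fh1 at 163 and 148 FPKM, and Suclg1 at 119 and 85.3 FPKM. The 7 genes of the outer membrane, pores and import receptors, had a median of -0.39, with Vdac1 at 134 and 72.5 FPKM, Vdac3 at 48.4 and 37.0 FPKM, and Vdac2 at 49.4 and 34.8 FPKM.

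The 80 genes of the mitochondrial ribosome had a median of -0.27, with 7 lower in KO by more than 1.5-fold. The 12 genes of coenzyme Q synthesis had a median of -0.25, with 4 (33.3%) lower by more than 1.5-fold. Their most abundant members were Coq9 at 49.1 FPKM in WT and 37.1 FPKM in KO, Adck3 at 43.6 and 27.8 FPKM, and Coq7 at 31.1 and 17.4 FPKM. The 5 expressed genes of mitochondrial transcription had a median of 0.01. Lrpprc, which stabilizes mitochondrial messages, had 29.5 FPKM in WT and 29.6 FPKM in KO, Tfam, which packs the mitochondrial genome, had 22.1 and 19.2 FPKM, and the polymerase Polrmt had 9.62 and 9.73 FPKM. The 7 expressed nuclear regulators of these genes were all lower, none past 1.5-fold, with a median of -0.39. Esrra, the receptor ERR alpha, had 193 FPKM in WT and 147 FPKM in KO, Yy1 had 17.9 and 13.8 FPKM, and Gabpa had 10.1 and 8.46 FPKM. Among all expressed genes 75.6% were lower in KO by any amount and 19.1% by more than 1.5-fold. These shares are the background for the counts of all these mitochondrial lists, those lower by any amount and those past the fold, respectively.

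**Figure D5:**
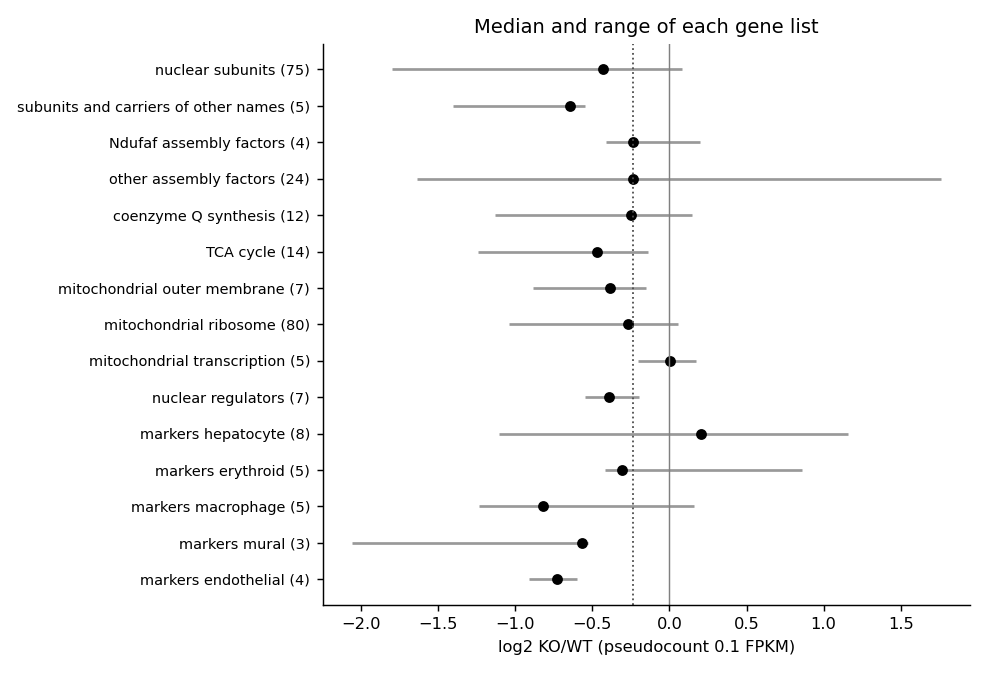
Median (points) and full range (lines) of log2 KO/WT for the nuclear subunits and for each gene list, with the number of expressed genes in parentheses. The dotted line is the median of all expressed genes (-0.24); the subunits (-0.43), the subunits and carriers of other names (-0.64) and the TCA cycle (-0.47) lie to its left, and mitochondrial transcription (0.01) lies to its right.

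Markers of liver cells and of brown fat were also compared. Among all expressed genes 75.6% were lower in KO by any amount and 19.1% by more than 1.5-fold. Higher in KO by more than 1.5-fold were 3.99%. The 4 endothelial markers were all lower in KO by more than 1.5-fold, with sums of 23.9 FPKM in WT and 14.5 FPKM in KO. Of 5 macrophage markers 4 (80.0%) were lower, all 4 by more than 1.5-fold, with sums of 34.4 and 23.0 FPKM. The other, Marco, had 6.58 FPKM in WT and 7.37 FPKM in KO. Of 5 erythroid markers 4 were lower, none by more than 1.5-fold, with sums over all 5 of 506 and 419 FPKM (419.0). The count of lower erythroid markers thus lay near the share of all genes lower by any amount. The other, Alas2, was higher by more than 1.5-fold, with 20.6 FPKM in WT and 37.5 FPKM in KO. Of the 8 hepatocyte markers 3 were lower and 5 higher in KO, and by more than 1.5-fold 2 were lower and 2 higher. The 2 lower past the fold were Cps1, at 1597 FPKM in WT and 743 FPKM in KO, and Tat, at 1115 and 595 FPKM. The 2 higher past it were Fgb, at 2698 FPKM in WT and 4534 FPKM in KO, and Cyp2e1, at 1039 and 2319 FPKM. Apoa2, the most abundant of the 8, had 5080 FPKM (5079.6) in WT and 5916 FPKM in KO. The part of cell makeup in the subunit levels was not tested. Of 5 brown fat markers 2 were expressed, and they went in opposite directions. Elovl3 was higher by more than 1.5-fold, at 41.5 FPKM in WT and 217 FPKM in KO, and Ppargc1a was lower, at 2.83 and 1.97 FPKM. Cidea had 0.0616 and 0.0353 FPKM, and Ucp1 and Dio2 were listed at 0 in both libraries.

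The promoters of the subunits were searched for motifs of factors known to act on them. Sequences from 250 bases before to 50 bases after the start were taken from RefSeq on GRCm38.p6, and 64 of the 75 expressed subunits matched by symbol. Exact matches were counted on both strands. The comparison set was all promoters, whether or not the gene was expressed here. The share among expressed genes was not counted, so these shares do not show a motif to be particular to the subunits. The core of the NRF1 site (GCATGCGC) was found in 10 of the 64, or 15.6%, and in 2.81% (2.805) of all 27025 promoters. An ETS core as bound by GABP (CCGGAAG) was found in 15, or 23.4%, and in 9.12% of all. A YY1 site (AAGATGGC) was found in 8, or 12.5%, and in 2.88% of all. An ERR half-site (TCAAGGTCA) was found in 2, or 3.13% (3.125), and in 0.407% of all, and the direct repeat of AGGTCA with 1 base between, the kind of element PPARs bind, in 0 of the 64 and in 0.0444% of all. The ERR motif contains the AGGTCA half-site of that repeat. A match is a description of letters and shows no binding, and no match says only that these letters are not in this window.

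The median log2 KO/WT was -0.39 in the 10 with the NRF1 core and -0.46 in the other 54, -0.42 in the 15 with the ETS core and -0.45 in the other 49, and -0.36 in the 8 with the YY1 site and -0.46 in the other 56. The 2 with the ERR half-site, Atp5g3 and Sdhd, had a median of -0.71 as against -0.44 in the other 62. Differences between these medians were not tested. Of the 64 subunits 18 were lower in KO by more than 1.5-fold. They included 3 of the 10 with the NRF1 core, 5 of the 15 with the ETS core and 1 of the 8 with the YY1 site. Both subunits with the ERR half-site were also among the 18. The 250 bases before the start of Sdhb (chr4:140961021-140961270, plus strand) and of Sdhd (chr9:50603850-50604099, minus strand), from RefSeq on GRCm38.p6, are shown because these are the complex II subunits past 1.5-fold. Capitals mark the NRF1 core of Sdhb, which begins 54 bases before the start, and the ETS core of Sdhd on the opposite strand, which begins 46 bases before it. The ETS core of Sdhb and the ERR half-site of Sdhd reach into the bases after the start, which are not shown.
Sdhb: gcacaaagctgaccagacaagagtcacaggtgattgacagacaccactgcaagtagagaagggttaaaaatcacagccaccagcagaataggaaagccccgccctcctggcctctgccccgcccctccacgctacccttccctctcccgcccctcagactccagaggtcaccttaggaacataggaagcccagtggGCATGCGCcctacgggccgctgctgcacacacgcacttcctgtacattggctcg
Sdhd: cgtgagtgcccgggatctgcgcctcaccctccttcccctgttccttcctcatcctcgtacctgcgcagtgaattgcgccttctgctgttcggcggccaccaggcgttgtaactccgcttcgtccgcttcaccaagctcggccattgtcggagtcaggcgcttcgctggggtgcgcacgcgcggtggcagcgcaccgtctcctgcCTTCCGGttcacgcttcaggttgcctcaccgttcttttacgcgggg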

How the data were processed

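Whole liver RNA was sequenced with paired-end reads by the labels, while the study's methods text names single-end reads. The authors aligned reads with TopHat (2.0.0) to NCBI37 (mm9), assembled transcripts with Cufflinks (1.3.0) and estimated FPKM with Cuffdiff. The deposited FPKM values, 1 per locus and library, were used as given; whether strand was kept or quartile normalization applied is not given in the sources used here. The table's fold change, test statistic, p-value, q-value and significance columns hold the authors' own comparison and were not used.

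A locus naming several symbols was given to each, and rows of 1 symbol were summed. log2 KO/WT used a pseudocount of 0.1 FPKM, expressed genes had a mean of at least 1 FPKM, 1.5-fold was the threshold, and the mitochondrial ribosome list held genes named Mrpl or Mrps. Fragments were estimated from the FPKM step of single fragments and the longest transcript of GENCODE vM1, protein-coding where there was one. For mitochondrially encoded loci the span of the row was the length, 2329 bases for both mt-Nd5 and mt-Nd6. Where shorter transcripts were present, fragments are overestimated and counting intervals are too narrow. Copies were found with minimap2 2.31 on NCBIM37. Values came from scipy 1.17.1 and pandas 2.3.3 under Python 3.11.15, tested on simulated data.

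Named were every mitochondrially encoded and HIDATA row, expressed members past 1.5-fold, the 2 most abundant and the extreme members of each complex, the Sdh genes, tissue isoforms with the liver counterparts analysed here, and the 3 most abundant genes of each list. Other names (Atp5g2, Cox5b, Ndufv2, Ndufaf and copy genes, Sco2, Cox7a2l, single markers) were chosen after values were seen. Members and lists were chosen with earlier results of these data known.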

Additional observations from a re-analysis of the deposited data

How the results depend on the processing

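With 1 library per genotype no leave-one-out analysis was possible, and no value has a replicate error. No paired analysis was possible because there is 1 library of each genotype and the result comes from no test. Copies shared with other loci and failed estimates limit Ndufs5 and the mitochondrial loci, as given with their values. Scaling and the fold threshold moved values. Centring on the median of all expressed genes (a shift of 0.24 in log2) took the median log2 KO/WT of the nuclear subunits to -0.19, and equal upper quartiles (a shift of 0.20) to -0.23. The medians became -0.14 and -0.18 for complex I, -0.22 and -0.26 for complex IV, and -0.33 and -0.37 for complex V under these 2 settings. The count of subunits lower in KO by more than 1.5-fold became 4 (5.33%) and 5 (6.67%), below the 11.6% and 12.6% (12.55) of all genes past that fold. With the lower alternative threshold the count was 56, or 74.7% as against 39.9% (39.85) of all genes, and with 2-fold it was 2, or 2.67% as against 8.23%. Without a filter on low values 1 subunit, Cox6a2, was higher by more than 1.5-fold in place of 0. The direction turned for the Ndufaf genes under centring (0.00, 0.004) and for the mitochondrial loci under centring (0.0642) and equal upper quartiles (0.0295); the cause was not tested. Under all settings tried the medians of the nuclear subunits and of each complex stayed below 0. Leaving out the 20 expressed subunits with a copy, or adding the fragments of their annotated copies, both chosen after seeing the data, left the median at -0.43, with 14 and 19 subunits past 1.5-fold.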
